A study of Mus musculus with 39 samples.

Results

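The Gadd45 family of stress-induced genes, Gadd45a, Gadd45b and Gadd45g, was followed across a mouse study of muscle stem cells and the muscle they came from. The members were the rows whose gene symbol is Gadd45a, Gadd45b or Gadd45g, which are 3 of the 16979 genes in the larger table of expression values and 3 of the 13938 genes in the smaller one. Muscle stem cells, also called satellite cells, sit on the muscle fibre and are marked by the transcription factor Pax7. The study asked how far RNA taken from isolated stem cells differs from RNA made in the living animal, and it had 39 libraries in 10 groups. Pax7CreER/+: UPRTHA/+ mice, in which Cre under the control of Pax7 permits expression of an HA-tagged uracil phosphoribosyltransferase (UPRT), received 4-thiouracil (4tU), which that enzyme makes available for RNA synthesis. The 4tU was given once, 6 h before the animals were killed, or every 12 h for 1 day or for 4 days, and tagged RNA was then pulled down from RNA of the whole hindlimb muscle (4 libraries each, called the 6 h, 1 day and 4 day labels). Total RNA of hindlimb muscle without pull-down made a further group of 4. Stem cells purified from muscle were sequenced as total RNA (4 libraries) and as RNA tagged by 4tU that was present while the cells were being isolated, a procedure of about 6 h (4 libraries, the isolation label). Cells isolated with the transcription inhibitor α-amanitin (4 libraries) or with its solvent DMSO (4 libraries) carried no 4tU. In the smaller table, cells sorted after perfusion of the animal with 1% paraformaldehyde (4 libraries, numbered 1, 3, 4 and 5) stood beside cells sorted without fixation (3 libraries). The labels give neither the age nor the sex of the mice. Nor do they tie replicates to separate mice, so a p-value here weighs a difference against library-to-library spread alone, and that spread may be technical.

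GADD45 proteins are small acidic proteins without enzymatic activity that act by binding others. They activate the kinase MAP3K4 (MTK1), which feeds the p38 and JNK stress kinases, and they bind the cell cycle proteins PCNA, p21 and the CDK1 and cyclin B pair. They have also been tied to removal of DNA methylation through DNA repair enzymes. Gadd45a is a classic target of p53 and of ATF4, Gadd45b of NF-kB and TGF-beta signalling, and Gadd45g of several cytokines. In muscle, Gadd45a is known for its rise in denervated and fasted fibres.

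The 3 genes lie on different chromosomes (mouse build mm10). In the deposited tables Gadd45a (ENSMUSG00000036390) spans 67035096 to 67037457 of chromosome 6 on the minus strand, Gadd45b (ENSMUSG00000015312) 80930091 to 80932204 of chromosome 10 on the plus strand, and Gadd45g (ENSMUSG00000021453) 51846678 to 51848468 of chromosome 13 on the plus strand. The summed exon lengths are 1764, 1266 and 1173 bases. Since the members moved differently across the groups, the bases just upstream of their start sites are shown for comparison, 5′ to 3′ on the strand of the gene (RefSeq, build GRCm38.p6). They cover chr6:67037458-67037657 for Gadd45a, chr10:80929841-80930072 for Gadd45b and chr13:51846425-51846674 for Gadd45g, and capitals mark the motifs found.
Gadd45a: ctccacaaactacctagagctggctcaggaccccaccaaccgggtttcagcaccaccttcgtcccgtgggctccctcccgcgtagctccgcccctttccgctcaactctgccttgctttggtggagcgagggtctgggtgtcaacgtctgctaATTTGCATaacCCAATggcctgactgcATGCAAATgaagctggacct
Gadd45b: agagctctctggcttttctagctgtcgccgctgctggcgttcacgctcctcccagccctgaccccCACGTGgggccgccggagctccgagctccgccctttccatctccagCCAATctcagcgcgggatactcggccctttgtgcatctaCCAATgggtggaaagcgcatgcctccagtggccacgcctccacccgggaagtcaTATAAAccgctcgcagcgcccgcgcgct
Gadd45g: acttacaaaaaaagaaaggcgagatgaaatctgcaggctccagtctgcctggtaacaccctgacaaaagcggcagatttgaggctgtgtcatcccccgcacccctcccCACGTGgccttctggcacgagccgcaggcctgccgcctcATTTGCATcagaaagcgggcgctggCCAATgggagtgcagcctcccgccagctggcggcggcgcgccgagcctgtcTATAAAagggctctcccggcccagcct
The octamer ATTTGCAT, read on both strands, occurred in the sequence of Gadd45a in each orientation and in that of Gadd45g, and was not found in that of Gadd45b. Of 32851 mouse windows of the 250 bases before a start site, 1.6% held it; the stretches printed for Gadd45a (200 bases) and Gadd45b (232 bases) are shorter because they end before the most upstream annotated start. The TATA box letters TATAAA were found 28 bases upstream of the right end for Gadd45b and 27 bases upstream for Gadd45g, and 12.4% of windows held them. Gadd45b and Gadd45g also shared the palindromic E-box CACGTG (6.02% of windows), and all 3 held the CCAAT box (33.8% of windows), Gadd45b at 2 positions. The AP-1 letters TGACTCA (4.46% of windows), the cAMP response element TGACGTCA (1.55%) and the NF-kB consensus (0.14%), searched on both strands like the others, were not in any of these stretches. None of the motifs searched overlapped another, and a match describes letters, not binding.

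The libraries held 2321903 to 102619074 reads assigned to genes, the fewest in the isolation label (2321903 to 7742378). A member's value rested on 216 to 40113 reads per library (larger table) or 271 to 9072 reads (smaller table). Replicates within most groups correlated closely. α-Amanitin replicate 1 stood apart in its group, with a mean Pearson r to it of 0.902 against 0.964 to 0.966 for the others. Every isolation label library (0.92 or less) and every fixed library (0.865 to 0.913) also had a low mean r to its group. Summed levels of 7 satellite cell markers were 1095 to 1121 RPKM (reads scaled to exon length and library size, so that genes can be compared per length) in isolated cells and 57.0 to 59.8 RPKM in whole muscle. They were 61.3 to 63.4 RPKM in the 4 day, 64.2 to 67.1 RPKM in the 1 day and 138 to 158 RPKM in the 6 h label, although the labels call those pull-downs stem cell RNA. Summed levels of 12 muscle fibre genes, such as the actin Acta1, were 128170 to 134778 RPKM in whole muscle and 70752 to 77153 RPKM in the 6 h label. Bulk RNA does not tell fewer cells of a type from less RNA per cell. Both tables were scaled separately, and no test was made across them. Every listed change is on the scale of log2(RPKM + 0.5) and comes from limma, fitted over all genes that reached 1 RPKM in 3 or more of the compared libraries. A gene was called where its p, after Benjamini-Hochberg adjustment over those genes, was under 0.05. Directions are those at the authors' scaling unless another is named, and the 12 comparisons share libraries with each other.

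The members had different orders of level across the 8 groups of the larger table. Gadd45a was highest in α-amanitin cells (150 ± 37.5 RPKM, SD, n = 4) and lowest in the 4 day label (23.96 ± 2.54 RPKM), a 6.26-fold span of the group means. Gadd45b was highest in the isolation label (364 ± 41.1 RPKM) and lowest in the 4 day label (22.9 ± 1.56 RPKM), a 15.9-fold span. Gadd45g was highest in the 6 h label (505 ± 23.6 RPKM) and lowest in the total RNA of isolated cells (39.7 ± 2.10 RPKM), a 12.7-fold span. From high to low, Gadd45a ran from α-amanitin to the 6 h label, DMSO, isolated total, isolation label, 1 day label, whole muscle and 4 day label, and its libraries overlapped between the first and the second, the second and the third, the isolation and 1 day labels, and the last pair. Gadd45b ran from the isolation label to α-amanitin, DMSO, isolated total, 6 h label, 1 day label, whole muscle and 4 day label, with overlap among the highest 3 groups, neighbour with neighbour, and between the lowest pair. Gadd45g ran from the 6 h label to α-amanitin, isolation label, DMSO, whole muscle, 4 day label, 1 day label and isolated total, with overlap between α-amanitin and isolation label, DMSO and whole muscle, and the 4 day and 1 day labels. These levels rest on the authors' library scaling: with library sizes from all reads, 21 of the 24 group means moved by more than 1 SD, and the ends of the orders changed. Gadd45a was then highest in DMSO cells (182 ± 16.2 RPKM), Gadd45a and Gadd45b were lowest in whole muscle, and Gadd45g was lowest in the 1 day label (62.3 ± 5.75 RPKM), with isolated cells (76.7 ± 3.57 RPKM) beside whole muscle (73.1 ± 3.89 RPKM). Gadd45b kept the isolation label and Gadd45g the 6 h label as the highest group, although the latter then overlapped α-amanitin cells.

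**Figure D1:**
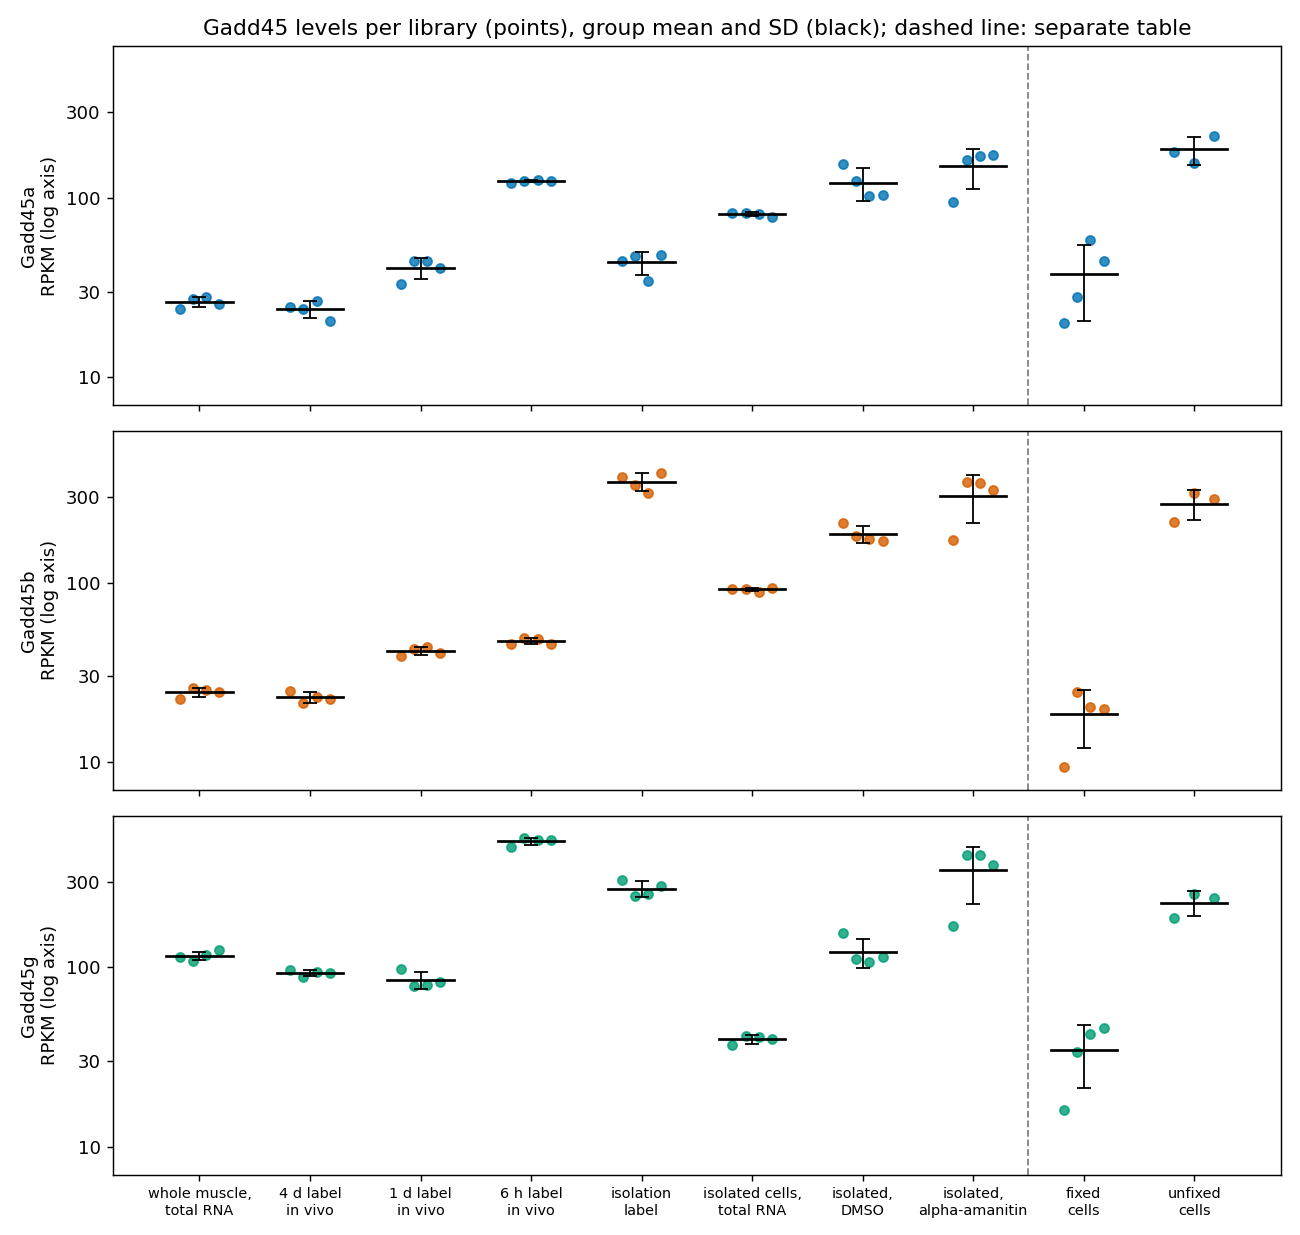
Levels of Gadd45a, Gadd45b and Gadd45g in RPKM on a log axis, 1 point per library, with the group mean and SD in black and the separately scaled smaller table right of the dashed line. Gadd45b peaks in the isolation label (364 RPKM) and Gadd45g in the 6 h label (505 RPKM), and all 3 are lower in fixed than in unfixed cells.

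Within a library, the division of the family among its members does not depend on library scaling. Gadd45g made up 69.6% ± 1.97 of the summed family level in whole muscle (SD, n = 4) and 18.7% ± 0.901 in the total RNA of isolated cells. Gadd45b was the largest member in the isolation label (53.3% ± 1.46) and the smallest in the 6 h label (6.99% ± 0.183). The ratio of Gadd45b to Gadd45a was 7.33 to 9.17 in the 4 isolation label libraries and 0.368 to 0.398 in the 4 libraries of the 6 h label, so those groups stood far apart.

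**Figure D2:**
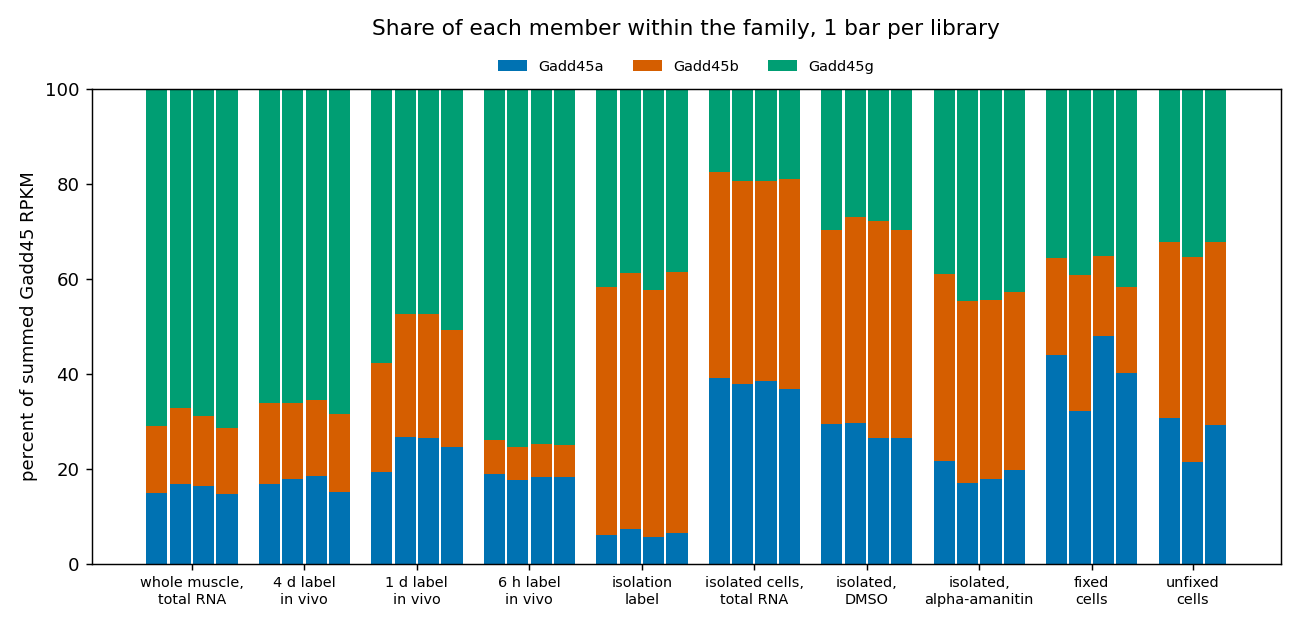
Share of each member in the summed Gadd45 RPKM of a library, in percent, with 1 bar per library. The Gadd45g share is largest in the 6 h label (73.9% to 75.3%) and smallest in the total RNA of isolated cells (17.4% to 19.3%).

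The short in vivo label was set against the total RNA of whole muscle. Tagging depends on UPRT permitted by Pax7-driven Cre, so cell of origin and time of synthesis cannot be told apart here. All 3 genes were higher in the 6 h label than in whole muscle under each scaling tried, with the smallest change in Gadd45b. Gadd45a, the p53 and ATF4 target, stood at 121, 123, 125 and 124 RPKM in the 6 h libraries and at 24.1, 27.4, 27.9 and 25.5 RPKM in whole muscle. Gadd45b, the NF-kB target, stood at 45.4, 49.0, 48.4 and 45.7 RPKM against 22.6, 25.8, 25.1 and 24.5 RPKM. Gadd45g stood at 471, 526, 511 and 511 RPKM against 115, 109, 117 and 124 RPKM. The groups did not overlap for any member, and within the 6 h label the libraries differed little. The share of all genes whose groups do not overlap was not counted, here or in the other comparisons. By limma, Gadd45a was 4.64-fold higher (95% interval 4.35 to 4.95, adjusted p = 1.85e-13), Gadd45g 4.33-fold higher (4.05 to 4.63, adjusted p = 3.42e-13) and Gadd45b 1.91-fold higher (1.78 to 2.04, adjusted p = 4.14e-10). Calls were common in this comparison: 90.0% of 11746 genes were called, 45.6% higher and 44.4% lower. With library sizes from all reads, 6972 genes were called higher and 3574 lower, against 5357 and 5220 at the authors' scaling, and the members' changes were then 2.56, 1.28 and 2.47 on the log2 scale for Gadd45a, Gadd45b and Gadd45g, against 1.99, 0.71 and 1.89 with median-of-ratios scaling. All 12 fibre genes, all 8 macrophage genes and 5 of 5 erythroid genes were lower in the 6 h label than in whole muscle. Of 6 satellite cell genes tested 4 were higher and 2 lower, and of 6 fibro-adipogenic genes 3 and 3. Of 6 endothelial genes 4 were higher and 1 lower, with sums of 2786 to 2981 RPKM against 2065 to 2144 RPKM. The part of these cell types in the Gadd45 values was not tested.

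Around the family, 10 of 13 tested inducers of Gadd45 genes were higher and 2 lower in the 6 h label than in whole muscle (median log2 change 0.73 against 0.02 over all genes). Foxo1, a transcription factor of the fasting response, stood at 63.4 ± 6.41 RPKM against 3.81 ± 0.449 RPKM, and Atf3, a stress-induced relative of ATF4, at 33.3 ± 1.81 against 8.84 ± 0.215 RPKM. Of the p38 and JNK pathway genes, 7 of 14 were higher and 7 lower, with the muscle p38 kinase gene Mapk12 lower (46.7 ± 1.41 against 111 ± 4.78 RPKM). Map3k4, the kinase that GADD45 proteins activate, was lower by 0.46 on the log2 scale (limma adjusted p = 5.2e-06). Of 13 binding partners and demethylation genes tested, 7 were higher, among them the methylcytosine dioxygenases Tet2 (6.27 ± 0.501 against 1.75 ± 0.0950 RPKM) and Tet3, and 5 lower. Among 22 p53 targets, 10 were higher and 6 lower: Trp53inp1, a p53-induced nuclear protein gene, stood at 20.7 ± 1.65 against 2.20 ± 0.1003 RPKM, and Ccng1, the cyclin G1 gene, was 3.98-fold lower. With median-of-ratios scaling the p53 targets divided into 9 higher and 11 lower, and with all reads into 16 and 4.

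With longer labelling the members stood nearer to whole muscle. In the 1 day label Gadd45a stood at 33.1, 44.4, 44.5 and 40.3 RPKM and Gadd45b at 39.2, 42.8, 43.9 and 40.3 RPKM, all above the whole muscle libraries. Gadd45g stood at 98.4, 78.7, 79.4 and 83.0 RPKM, all below them. By limma, Gadd45a was 1.53-fold higher than in whole muscle (95% interval 1.35 to 1.73, adjusted p = 1.11e-05), Gadd45b 1.68-fold higher (1.56 to 1.82, adjusted p = 1.36e-08) and Gadd45g 1.37-fold lower (1.24 to 1.52, adjusted p = 2.68e-05), where 82.9% of 11158 genes were called, 28.2% higher and 54.7% lower. All 3 changes had the same direction with library sizes from all reads, under which 4674 genes were called higher and 4376 lower, against 3149 and 6101.

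In the 4 day label no member was higher than in whole muscle at the authors' scaling. Gadd45a stood at 24.6, 23.9, 26.7 and 20.6 RPKM and Gadd45b at 24.97, 21.3, 23.1 and 22.3 RPKM, both overlapping whole muscle. Gadd45g stood at 97.0, 88.1, 94.8 and 93.3 RPKM, below every whole muscle library. By limma, Gadd45g was 1.24-fold lower (95% interval 1.16 to 1.33, adjusted p = 2.50e-05), a call lost with all groups in 1 fit (adjusted p = 0.155), and 84.5% of 11347 genes were called, 28.1% higher and 56.4% lower. The log2 changes of Gadd45a (-0.13 ± 0.07 SE, adjusted p = 0.102) and Gadd45b (-0.09 ± 0.05 SE, adjusted p = 0.121) missed the threshold in limma and turned to 0.06 and 0.10 with library sizes from all reads. Without whole muscle replicate 1 both passed it (adjusted p = 0.0445 and 0.0330), as did Gadd45a without 4 day replicate 3 (adjusted p = 0.0231) and Gadd45b without 4 day replicate 1 (adjusted p = 0.0256). With all reads 4475 genes were called higher and 5017 lower, against 3189 and 6397 at the authors' scaling. The 6 h, 1 day and 4 day comparisons share the whole muscle libraries. Satellite cell marker sums were close to those of whole muscle in the 1 day and 4 day labels, and their part in these values was not tested.

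Gadd45g and Gadd45a differed between the 6 h label and both longer labels by more than Gadd45b did. Against the 1 day label, the 6 h label held 5.93-fold more Gadd45g (95% interval 5.37 to 6.56, adjusted p = 2.37e-12 in limma) and 3.03-fold more Gadd45a (2.71 to 3.40, adjusted p = 3.37e-10), but only 1.13-fold more Gadd45b (1.06 to 1.22, adjusted p = 0.00258), with 86.2% of 11822 genes called, 50.0% higher and 36.2% lower. By size of change in either direction Gadd45g ranked 71 of those genes. Against the 4 day label, the 6 h label was 5.38-fold higher for Gadd45g (95% interval 5.05 to 5.74, adjusted p = 8.08e-13 in limma), 5.08-fold for Gadd45a (4.63 to 5.59, adjusted p = 1.20e-11) and 2.04-fold for Gadd45b (1.89 to 2.19, adjusted p = 1.01e-09), with 88.7% of 11975 genes called, 52.7% higher and 36.1% lower. Between the longer labels the pattern differed: the 1 day label was 1.80-fold above the 4 day label for Gadd45b (95% interval 1.66 to 1.95, adjusted p = 1.75e-07 in limma) and 1.68-fold for Gadd45a (1.45 to 1.93, adjusted p = 3.34e-05), where 54.2% of 11232 genes were called, 33.3% higher. Gadd45g changed by -0.14 ± 0.07 (SE) on the log2 scale between these labels (limma adjusted p = 0.0877), and by -0.21 without 1 day replicate 1 (adjusted p = 7.91e-04), the library with its highest level. The call of Gadd45b between the 6 h and 1 day labels was lost with all groups in 1 fit (adjusted p = 0.332 in limma). The 3 times enter 3 comparisons with each other and share libraries. All 12 fibre genes and all 5 erythroid genes tested were lower in the 6 h label than in either longer label, and of 6 satellite cell genes 4 were higher and 2 lower in both comparisons. Of 6 endothelial genes 2 were higher and 2 lower against the 1 day label, and 4 and 0 against the 4 day label. Between the 1 day and 4 day labels all 5 erythroid genes were lower, with sums of 1045 to 1108 against 3525 to 4029 RPKM. The part of these in the Gadd45 values was not tested. Of 20 p53 targets tested, 11 were higher and 0 lower in the 1 day than in the 4 day label (median log2 change 0.19 against 0.04 over all genes). The inducers were higher in 11 of 13 and lower in 1 of 13 in the 6 h against the 4 day label, with a median log2 change of 0.74 against 0.18 over all genes.

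Isolated stem cells held more Gadd45a and Gadd45b than whole muscle and, at the authors' scaling but not with library sizes from all reads, less Gadd45g. In total RNA of isolated cells Gadd45a stood at 82.5, 81.7, 81.0 and 77.8 RPKM and Gadd45b at 91.9, 92.1, 89.1 and 93.2 RPKM, each above every whole muscle library. Gadd45g stood at 36.8, 41.6, 40.7 and 39.7 RPKM, below every whole muscle library. By limma, Gadd45a was 3.04-fold higher (95% interval 2.83 to 3.27, adjusted p = 6.06e-12), Gadd45b 3.69-fold higher (3.46 to 3.94, adjusted p = 5.89e-13) and Gadd45g 2.90-fold lower (2.69 to 3.13, adjusted p = 1.56e-11). These are 3 calls in a comparison in which 95.3% of 14813 genes were called, 48.8% higher and 46.5% lower. Gadd45g was 0.07 higher on the log2 scale with library sizes from all reads (limma adjusted p = 0.171), where 10847 genes were called higher and 3384 lower, against 7227 and 6884 at the authors' scaling. Gadd45a shares its locus with E230016M11Rik, an annotated transcript on the opposite strand at 2.62 ± 0.161 RPKM in isolated cells and 0.294 ± 0.0565 RPKM in whole muscle, and no source used here states whether strand entered the counting, so reads of the pair cannot be told apart.

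Of 14 inducers, 10 were higher and 3 lower in isolated cells than in whole muscle (median log2 change 0.83 against 0.06 over all genes), where 48.8% of all genes were called higher. The immediate early gene Egr1 stood at 1023 ± 61.2 RPKM against 5.39 ± 0.266 RPKM, Atf3 at 320 ± 17.4 against 8.84 ± 0.215 RPKM and Jun at 418 ± 38.1 against 70.1 ± 0.995 RPKM. Of the p38 and JNK genes 3 were higher and 11 lower at the authors' scaling, and 9 higher and 3 lower with all reads. The fibre-enriched Mapk12 was at 1.29 ± 0.262 RPKM against 111 ± 4.78 RPKM. The p53 targets divided into 13 higher and 11 lower, with the antiproliferative gene Btg2 13.6-fold higher and Ccng1 77.5-fold lower. All 12 fibre genes and all 8 macrophage genes were lower in isolated cells and all 7 satellite cell genes higher, and their part in the Gadd45 values was not tested. The partner list divided into 7 higher and 7 lower, with the muscle deaminase gene Apobec2 at 1.498 ± 0.595 against 763 ± 19.9 RPKM.

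The isolation label was meant to mark RNA made after the muscle had been taken, and untagged RNA carried through the pull-down was not measured. Compared with total RNA of isolated cells, the isolation label held more Gadd45b and Gadd45g and less Gadd45a. Gadd45a stood at 44.7, 47.5, 34.3 and 47.8 RPKM, all below the total RNA libraries. Gadd45b stood at 385, 349, 314 and 408 RPKM and Gadd45g at 307, 249, 257 and 286 RPKM, all far above them. By limma, Gadd45g was 6.83-fold higher (95% interval 5.82 to 8.01, adjusted p = 1.30e-07), Gadd45b 3.94-fold higher (3.35 to 4.64, adjusted p = 5.75e-07) and Gadd45a 1.86-fold lower (1.54 to 2.25, adjusted p = 2.02e-04), where 59.5% of 14863 genes were called, 29.8% higher and 29.7% lower. The directions held with library sizes from all reads, under which 3005 genes were called higher and 7237 lower, against 4426 and 4417. The isolation label also held more RNA of other cells: its 12 muscle fibre genes summed to 8995 to 36166 RPKM against 79.4 to 276 RPKM in total RNA, and 8 macrophage genes to 307 to 442 RPKM against 21.9 to 24.8 RPKM. All 12 fibre genes, all 7 macrophage genes and all 5 erythroid genes tested were higher, as were 5 of 6 fibro-adipogenic genes, and 6 of 7 satellite cell genes were lower. None of the markers was at 0 in all libraries of either group, and their part in the Gadd45 values was not tested.

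The other lists did not all move with Gadd45b and Gadd45g. All 3 early response genes, Fos, Jun and Egr1, were lower in the isolation label than in total RNA (median log2 change -0.77). Of 14 inducers 3 were higher and 5 lower in the isolation label than in total RNA (median log2 change -0.32 against -0.07 over all genes), with Cebpb, a transcription factor of acute inflammation, at 28.8 ± 9.51 against 3.70 ± 2.03 RPKM and Egr1 1.93-fold lower. Of 23 p53 targets 7 were higher, among them the pro-apoptotic gene Bax (150 ± 23.1 against 18.9 ± 1.495 RPKM) and the stress cytokine gene Gdf15 (14.4 ± 2.45 against 2.21 ± 0.484 RPKM), and 8 lower, among them Pmaip1 (Noxa). Of 15 partners 7 were higher, with Gadd45gip1, which encodes a GADD45-binding mitochondrial ribosome protein, at 9.32 ± 2.50 against 1.38 ± 0.141 RPKM, and 5 were lower, with the DNA glycosylase gene Tdg 2.13-fold lower. The p38 and JNK genes divided into 3 higher and 3 lower of 14. Map3k4 differed by -0.21 on the log2 scale (limma adjusted p = 0.39). With all reads the list counts were 3 higher and 9 lower for p38 and JNK, 4 and 8 for partners, 4 and 13 for p53 targets, and 1 and 9 for inducers.

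The labels of about 6 h in the animal and during isolation separated the members most. The 6 h label in vivo held 7.62-fold less Gadd45b than the isolation label (95% interval 6.32 to 9.18, adjusted p = 2.78e-07 in limma), with libraries at 45.4 to 49.0 RPKM against 314 to 408 RPKM. It held 2.83-fold more Gadd45a (2.30 to 3.48, adjusted p = 1.71e-05 in limma) and 1.84-fold more Gadd45g (1.53 to 2.21, adjusted p = 2.05e-04). Of 13003 genes 63.0% were called, 38.5% higher and 24.4% lower. With library sizes from all reads Gadd45g changed by 0.32 (limma adjusted p = 0.0958), and 2577 genes were called higher and 4628 lower, against 5010 and 3178. These groups also differ in cell source: satellite cell markers summed to 138 to 158 RPKM in the 6 h label and 428 to 762 RPKM in the isolation label, and the part of this in the Gadd45 values was not tested. Of the 3 early response genes, Fos and Egr1 were lower in the 6 h label, and Jun did not pass the test (218 ± 13.9 against 260 ± 77.0 RPKM, limma adjusted p = 0.345). Egr1 stood at 4.76 ± 0.396 RPKM in the 6 h label and 552 ± 196 RPKM in the isolation label, and Atf3 at 33.3 ± 1.81 against 260 ± 97.4 RPKM. Foxo1 (63.4 ± 6.41 against 4.11 ± 0.823 RPKM) was on the side of Gadd45a. Of 13 inducers 4 were higher and 6 lower in the 6 h label, of 24 p53 targets 7 and 9, of 14 partners 7 and 1, and of 14 p38 and JNK genes 8 and 0. With all reads these counts were 3 and 7, 6 and 11, 4 and 3, and 4 and 0.

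Whether tagged RNA departs from total RNA in a different way during isolation and in the animal was tested as the difference of both differences. The total RNA was that of isolated cells for the isolation label and that of whole muscle for the 6 h label. Satellite cell markers summed to 1095 to 1121 RPKM in the former and 57.0 to 59.8 RPKM in the latter. Label and reference tissue therefore cannot be told apart in this contrast. For Gadd45a, tagged RNA was below total RNA during isolation and above it in the animal, an interaction of -3.11 ± 0.13 (SE) on the log2 scale (limma adjusted p = 1.28e-11). For Gadd45b the excess of tagged over total RNA was larger during isolation by 1.05 ± 0.11 (adjusted p = 5.70e-07 in limma), and for Gadd45g by 0.66 ± 0.11 (adjusted p = 7.90e-05). In this contrast 72.1% of 15451 genes were called, 33.4% upward and 38.8% downward. With library sizes from all reads the interaction was 0.0026 for Gadd45b (limma adjusted p = 0.988) and -0.39 for Gadd45g (adjusted p = 0.0290), and 3193 genes were called upward and 8855 downward, against 5157 and 5989.

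Cells isolated with DMSO held more of all 3 members than the isolated cells of the labelling experiment. In DMSO cells Gadd45a stood at 155, 124, 102 and 103 RPKM, Gadd45b at 215, 181, 175 and 170 RPKM and Gadd45g at 156, 112, 107 and 115 RPKM. Every one of these values was above the 4 libraries of isolated total RNA. By limma, Gadd45g was 3.02-fold higher (95% interval 2.48 to 3.69, adjusted p = 4.67e-06), Gadd45b 2.01-fold higher (1.69 to 2.39, adjusted p = 5.77e-05) and Gadd45a 1.47-fold higher (1.19 to 1.82, adjusted p = 0.0104), with 43.6% of 14165 genes called, 24.7% higher and 18.9% lower. All 3 remained higher with library sizes from all reads, although 1227 genes were then called higher and 6067 lower, against 3495 and 2675. The p53 targets were higher in 12 of 23 and lower in 0 (median log2 change 0.35 against 0.12 over all genes), among them Plk2, a stress-responsive polo-like kinase gene (71.9 ± 9.59 against 32.9 ± 2.14 RPKM), and the p21 gene Cdkn1a (188 ± 29.1 against 103 ± 7.01 RPKM). Of 14 inducers 6 were higher and 1 lower, with Egr1 at 2461 ± 270 against 1023 ± 61.2 RPKM. Of 13 p38 and JNK genes 3 were higher and 1 lower, and of 14 partners 4 and 2, counts that became 0 and 3, and 1 and 6, with all reads. With all reads the p53 targets had 5 higher and 3 lower, and the inducers 5 and 5. Markers of other cells were higher in DMSO cells. Endothelial genes summed to 286 to 333 RPKM against 105 to 117 RPKM (6 of 6 higher), fibro-adipogenic genes to 575 to 819 against 314 to 331 RPKM (6 of 6), macrophage genes to 59.0 to 73.2 against 21.9 to 24.8 RPKM (8 of 8) and erythroid genes to 78.7 to 82.6 against 31.5 to 35.98 RPKM (5 of 5 tested). Satellite cell genes were higher in 4 of 7 and fibre genes lower in 5 of 11 tested, and the part of these in the result was not tested. The labels do not say whether these groups were prepared together, and solvent and experiment cannot be told apart.

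α-Amanitin blocks RNA polymerase II, so the comparison with DMSO asked which RNA levels depend on transcription during isolation. At the authors' scaling, but not with mitochondrial scaling, Gadd45g was higher with α-amanitin, and Gadd45a and Gadd45b missed the threshold. In α-amanitin cells Gadd45a stood at 94.0, 163, 170 and 173 RPKM, Gadd45b at 172, 365, 357 and 327 RPKM and Gadd45g at 169, 424, 422 and 374 RPKM. Replicate 1 was the lowest for every member, and for Gadd45a and Gadd45b it lay within the DMSO range or below it, while all 4 Gadd45g values were above all DMSO values. By limma, Gadd45g was 2.69-fold higher (95% interval 1.67 to 4.33, adjusted p = 0.00832), where 44.2% of 13710 genes were called, 33.9% higher and 10.3% lower. The log2 change was 0.66 ± 0.26 (SE) for Gadd45b (adjusted p = 0.0603 in limma) and 0.29 ± 0.25 for Gadd45a (adjusted p = 0.340). Without α-amanitin replicate 1, limma called all 3 higher, with log2 changes of 1.74 for Gadd45g (adjusted p = 3.25e-07), 0.92 for Gadd45b (adjusted p = 9.36e-05) and 0.50 for Gadd45a (adjusted p = 0.0197), and called 10660 genes in place of 6058.

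These directions depended on scaling. With library sizes from all reads, 3223 genes were called higher and 4163 lower, against 4646 and 1412 at the authors' scaling, and the members changed by 0.91 (Gadd45g), 0.15 (Gadd45b) and -0.23 (Gadd45a). With library sizes set from genes of the mitochondrial genome, transcribed by another polymerase, 324 genes were called higher and 11148 lower, and the members changed by -0.07, -0.84 and -1.21. The ratio of Gadd45g to Gadd45a within a library, which library scaling leaves untouched, was 1.80 to 2.61 in α-amanitin libraries against 0.903 to 1.12 in DMSO libraries. α-Amanitin cells also held more muscle fibre RNA, with 12 of 12 fibre genes higher and sums of 2653 to 13561 RPKM against 64.9 to 113 RPKM, and macrophage sums of 71.7 to 209 RPKM against 59.0 to 73.2 RPKM. Erythroid genes were higher in 5 of 5 tested and fibro-adipogenic genes in 4 of 6. No marker gene was at 0 throughout a group, and the part of these cells' RNA in the result was not tested.

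At the authors' scaling 11 of 24 p53 targets were higher with α-amanitin and 3 lower (median log2 change 0.43 against 0.28 over all genes), and 14 and 4 without α-amanitin replicate 1. Ccng1 stood at 63.9 ± 27.4 against 12.3 ± 2.42 RPKM, Cdkn1a at 419 ± 57.2 against 188 ± 29.1 RPKM and Phlda3, a repressor of AKT signalling, at 55.98 ± 24.1 against 11.5 ± 3.44 RPKM. Of 14 p38 and JNK genes 7 were higher, among them the p38 gene Mapk14 (18.6 ± 4.60 against 10.1 ± 1.53 RPKM) and its substrate Mapkapk2, and 3 lower. Of 14 partners 6 were higher and 3 lower, and of 14 inducers 6 and 1, with the NF-kB subunit gene Rela at 206 ± 62.0 against 72.5 ± 24.2 RPKM. With mitochondrial scaling the same lists had 2 higher and 16 lower (p53 targets), 1 and 10 (p38 and JNK), 1 and 11 (partners), and 1 and 9 (inducers). Of the 3 early genes Fos, Jun and Egr1, 0 were called higher and 0 lower with α-amanitin at the authors' scaling. Their sums were 2802 to 6336 RPKM against 4957 to 6779 RPKM in DMSO cells.

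Fixation of the tissue before the cells were sorted was compared with sorting without fixation. All 3 members were lower in fixed cells, Gadd45b by the most. Gadd45a stood at 20.04, 27.9, 58.3 and 44.5 RPKM in fixed cells and at 179, 157 and 221 RPKM in unfixed cells. Gadd45b stood at 9.34, 24.7, 20.3 and 19.9 RPKM against 217, 316 and 291 RPKM. Gadd45g stood at 16.1, 33.96, 42.6 and 46.1 RPKM against 189, 258 and 242 RPKM. The groups were far apart for each member, and the fixed libraries varied more in relative terms, with replicate 1 the lowest for all 3. By limma, Gadd45b was 15.1-fold lower (95% interval 9.18 to 24.8, adjusted p = 6.71e-05), Gadd45g 6.96-fold lower (4.09 to 11.8, adjusted p = 5.19e-04) and Gadd45a 5.23-fold lower (3.07 to 8.91, adjusted p = 0.00116). Of 12816 genes 12.2% were called higher and 10.8% lower, and by size of change in either direction Gadd45b ranked 90. The changes kept their direction and their call when any single library was left out, and with either other scaling.

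Among the lists, calls in fixed cells were on the lower side for inducers and on both sides for p53 targets and partners. The p38 and JNK genes had few calls, and over all genes 12.2% were called higher and 10.8% lower. Of 14 inducers 0 were higher and 7 lower (median log2 change -1.41 against 0.07 over all genes): Egr1 stood at 48.3 ± 13.6 against 3780 ± 771 RPKM, Atf3 at 5.04 ± 4.78 against 720 ± 247 RPKM, Jun at 38.01 ± 18.5 against 809 ± 263 RPKM and Atf4 at 118 ± 10.5 against 379 ± 39.4 RPKM (n = 4 and 3). Of 24 p53 targets 4 were higher and 9 lower, with Btg2 20.2-fold and the Noxa gene Pmaip1 21.2-fold lower. Of 13 p38 and JNK genes 0 were higher and 2 lower, the p38 activator Map2k3 (13.4 ± 3.78 against 173 ± 36.3 RPKM) and Mapkapk2. The partners divided into 4 higher (median log2 change 0.60 over the 15 tested), with Cdk1 at 11.5 ± 3.56 against 1.82 ± 0.00578 RPKM, and 2 lower, Cdkn1a and Tdg. Summed levels of the early genes Fos, Jun and Egr1 were 103 to 151 RPKM in fixed and 5784 to 7551 RPKM in unfixed cells. Endothelial markers summed to 37.8 to 236 RPKM against 193 to 1258 RPKM, with 6 of 6 lower. Satellite cell markers summed to 735 to 1090 against 2095 to 2295 RPKM, but of these 7 genes 2 were called higher and 3 lower. The part of both lists in the Gadd45 values was not tested. The fixed libraries are the only ones here whose RNA was cross-linked, and an effect of fixation on the cells and one on RNA recovery cannot be told apart.

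**Figure D3:**
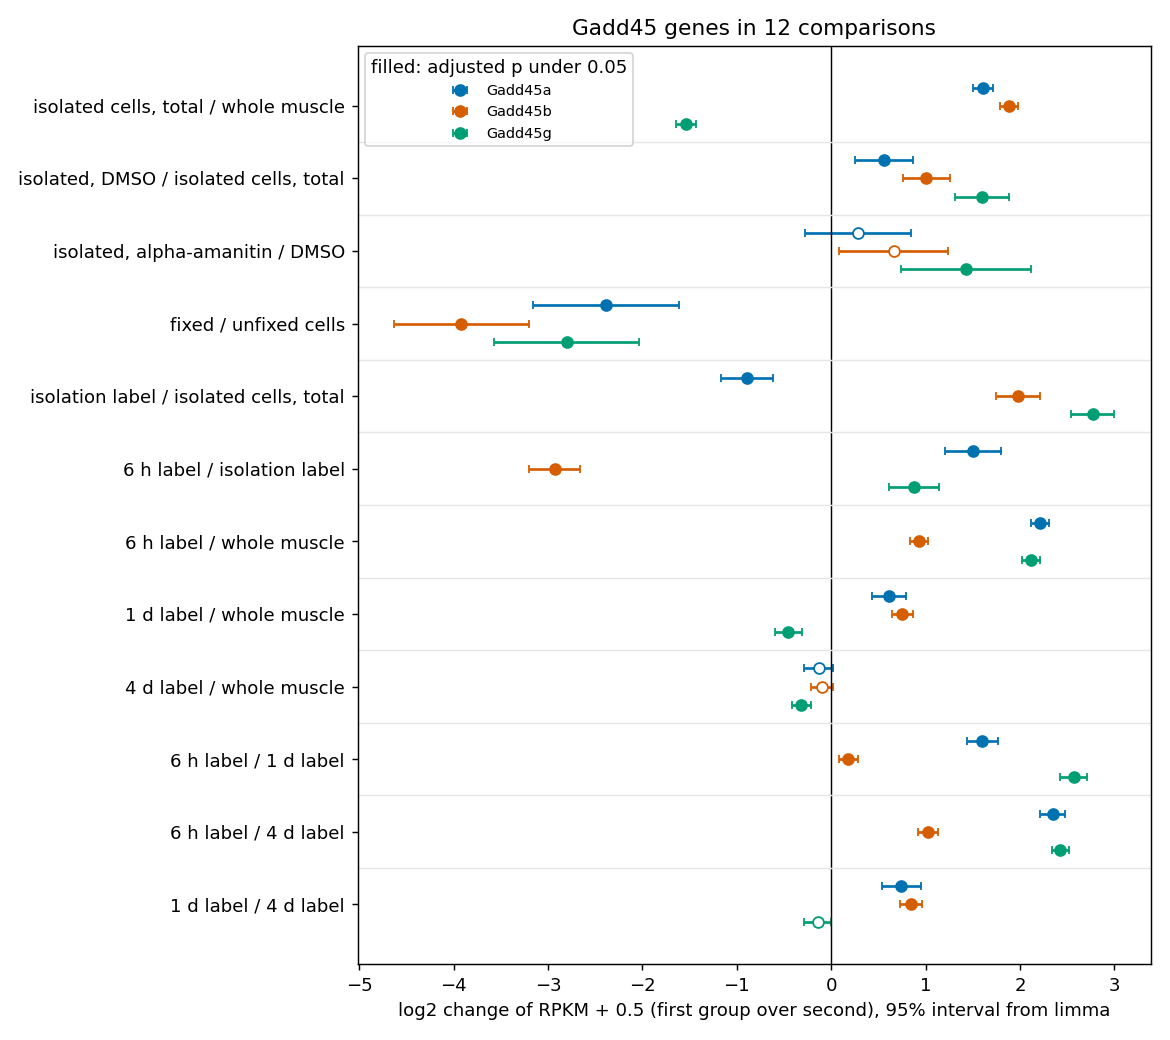
Log2 change of each member in the 12 comparisons (first group over second) with limma's 95% interval, where filled points were called at an adjusted p under 0.05. Gadd45b spans the widest range, from -3.92 in fixed cells to 1.98 in the isolation label.

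**Figure D4:**
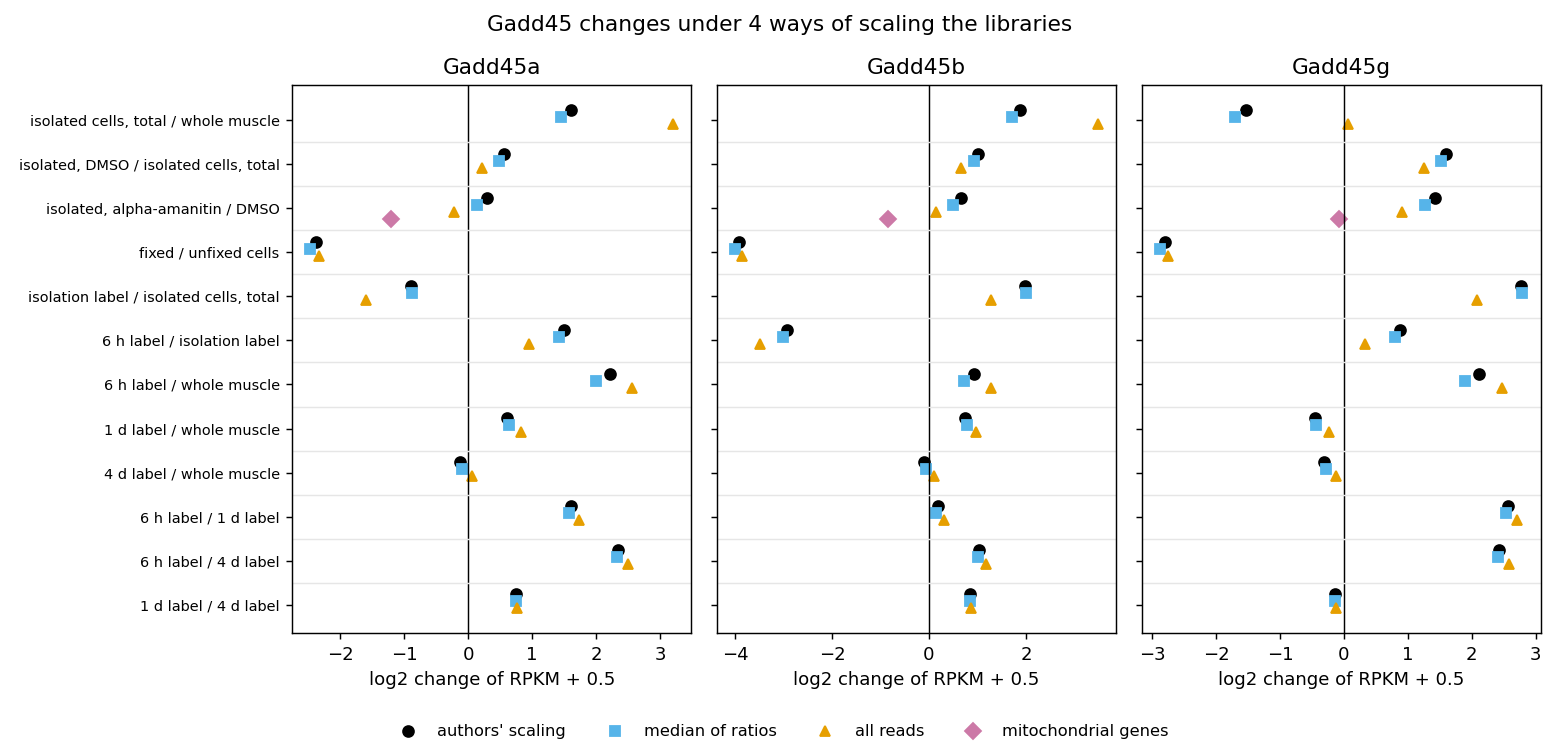
Log2 change of each member in the 12 comparisons under the authors' scaling, median-of-ratios scaling, library sizes from all reads and, for α-amanitin, library sizes from mitochondrially encoded genes. The largest shift is that of isolated cells against whole muscle with all reads, where Gadd45g goes from -1.54 to 0.07.

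The genes most like each member over the 32 libraries of the larger table differed between members. They were taken among 6653 genes with a mean of 5 RPKM or more, by Pearson correlation of log2(RPKM + 0.5), and the correlations describe libraries that share groups and scaling. Gadd45a was nearest to Wasf2 (r = 0.963, Spearman rho = 0.943) and Wasl (r = 0.959), which promote actin branching, followed by Ell (r = 0.957), Ip6k1 (r = 0.955) and Zbtb20 (r = 0.954). Gadd45b was nearest to Kctd17 (r = 0.981, rho = 0.951), the immediate early gene Ier3 (r = 0.980), Tmem252 (r = 0.976), Id3 (r = 0.976), an inhibitor of basic helix-loop-helix factors, and Palm (r = 0.975). Gadd45g was nearest to the mitochondrial carrier gene Ucp2 (r = 0.938, rho = 0.923), Magoh (r = 0.931), Esam (r = 0.925), the endotoxin co-receptor gene Cd14 (r = 0.915) and the small nucleolar RNA host Snhg5 (r = 0.907). Between members the correlation was 0.596 for Gadd45a and Gadd45b, 0.415 for Gadd45a and Gadd45g, and 0.357 for Gadd45b and Gadd45g. The genes above were picked as the highest of 6653, so their r cannot be weighed against those between members. Ier3, like Gadd45b, stood higher in the isolation label (128 ± 39.6 RPKM) than in the 6 h label (21.1 ± 0.531 RPKM). Cd14, like Gadd45g, was higher in the 6 h label (27.6 ± 2.03 RPKM) than in the isolation label (17.04 ± 7.41 RPKM). Ier3 and Cd14 were picked for their correlation over these same libraries, so such likeness follows from the choice, and no test was made of these pairs.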

How the data were processed

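Polyadenylated RNA was amplified with oligo(dT) priming from 500 pg (labelling and inhibitor libraries) or 1 ng (fixation libraries) and sequenced as 101 bp paired reads, per the labels' protocols. The submitters' processing notes name Trim Galore, STAR, featureCounts, Subread and edgeR and the build mm10, without versions or parameters. The authors deposited RPKM values per gene in 2 tables. Multiplying them by gene length gave whole reads (within 0.1 read) for 100% of values, which showed library scaling factors of 0.612 to 1.95 in the larger and 0.903 to 1.01 in the smaller table. The header of the larger table sits 1 cell left of its values and was read accordingly. Rows without a symbol (1488 and 555) were tested under their gene ID, and no value column was left out.

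Groups were taken from the labels. Genes that reached 1 RPKM in 3 or more of the compared libraries were tested with limma 3.58.1 (trend option, R 4.3.3) on log2(RPKM + 0.5), with Benjamini-Hochberg adjustment over all genes tested, and the fit was tested on simulated data. Folds are on that scale and understate changes of low genes. Named genes were the 3 members, the 5 genes most correlated with each, and up to 4 genes per list by adjusted p, besides Map3k4, named in 2 comparisons after its values were seen. The members, lists and motifs were chosen with earlier results of these data known. Alternatives were other pseudocounts, no filter, other scalings, all groups in 1 fit, limma-voom on recovered reads, the replicate number as a block, and leaving out each library. The list counts without α-amanitin replicate 1 and under other scalings, and the levels with all-read library sizes, were added after the values were seen. Intervals cover the spread between libraries. No 2 libraries held identical values.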

Additional observations from a re-analysis of the deposited data

Results flagged for a closer look

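Gadd45a in α-amanitin replicate 1 stood at 94.0 RPKM while the other 3 libraries of the group stood at 163 to 173 RPKM, a gap of 0.863 of the group's range. Gadd45g in DMSO replicate 1 stood at 156 RPKM while the others stood at 107 to 115 RPKM, a gap of 0.838 of the range. Both gaps exceed the critical value for 4 libraries, and 54 such checks were made, of which chance passes about 1 in 20. The α-amanitin library also stood apart over all genes (mean r of 0.902 to its group). Without DMSO replicate 1 the log2 change of Gadd45g with α-amanitin was 1.55 (limma adjusted p = 0.0122).

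The difference between tagged and total RNA was not the same during isolation as over 6 h in the animal for any member. The total RNA came from isolated cells in the first case and from whole muscle in the second, so label and reference tissue cannot be told apart. The difference of the differences was -3.11 for Gadd45a, 1.05 for Gadd45b and 0.66 for Gadd45g on the log2 scale, each past the threshold in limma at the authors' scaling. Library sizes from all reads kept this call and direction for Gadd45a (-4.15) only, not for Gadd45b (0.0026) or Gadd45g (-0.39).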

How the results depend on the processing

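Of 642 alternative values of the members' 39 changes, 617 kept their direction and side of the threshold, 8 turned direction, 5 lost and 12 gained the call, and 27 of the changes were stable in every alternative. For α-amanitin against DMSO, Gadd45a was -0.23 with library sizes from all reads (limma adjusted p = 0.0399) and -1.21 with mitochondrial scaling (adjusted p = 4.06e-05), and 0.20 to 0.50 with each library left out. Gadd45b gained the call with median-of-ratios scaling (0.51, adjusted p = 0.0463), limma-voom on recovered reads (0.67, adjusted p = 0.0406) and all groups in 1 fit (0.66, adjusted p = 4.39e-04), was -0.84 with mitochondrial scaling (adjusted p = 4.73e-04), and 0.56 to 0.92 with each library left out. Gadd45g was -0.0748 with mitochondrial scaling (adjusted p = 0.618). With all reads, Gadd45g was 0.0685 in isolated cells against whole muscle and 0.32 in the 6 h against the isolation label, the interaction was 0.0026 for Gadd45b and -0.39 for Gadd45g, and the 4 day label against whole muscle gave 0.0624 for Gadd45a and 0.10 for Gadd45b. With all groups in 1 fit, the calls of Gadd45g in the 4 day label against whole muscle (-0.31, adjusted p = 0.155) and of Gadd45b in the 6 h against the 1 day label (0.18, adjusted p = 0.332) were lost. Leaving out each library gave -0.185 to -0.062 (Gadd45a) and -0.135 to -0.0588 (Gadd45b) for the 4 day label against whole muscle, and -0.21 to -0.11 for Gadd45g between 1 day and 4 day labels. The cause of these shifts was not tested.

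The labels do not say that replicate numbers pair libraries, and in no comparison did every same-numbered pair correlate above 0.1 (range -0.59 to 0.24). Still, 3 of 4 libraries matched their own number best in isolated cells, the 6 h label and the 4 day label, each against whole muscle (r of 0.23, 0.24 and 0.10 in the last), a hint from the data and not from the design. With the replicate number as a block, Gadd45g with α-amanitin stayed at 1.43 (adjusted p = 0.0521), Gadd45a in the 4 day label against whole muscle at -0.13 (adjusted p = 0.0322) and Gadd45g between 1 day and 4 day labels at -0.14 (adjusted p = 0.0480), and the block changed no other call of a member. It moved the genes called from 6058 to 1978 for α-amanitin and from 2951 to 1825 for fixation, where 2 numbers are shared.

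Genes called also moved from 6058 to 10128 (all groups in 1 fit), 11472 (mitochondrial scaling) and 2828 to 10660 (a library left out) for α-amanitin, the highest without α-amanitin replicate 1. With all groups in 1 fit they moved from 9250 to 6046 (1 day label against whole muscle), from 6090 to 775 (1 day against 4 day) and from 6170 to 2443 (DMSO against isolated total). Leaving out a library gave 3678 to 7377 for DMSO and 1527 to 3384 for fixation. All-read sizes shifted the median of all genes by -0.81 to 1.41 on the log2 scale, median-of-ratios scaling by -0.20 to 0.11 and mitochondrial scaling by -1.34. The test of counts by edgeR on recovered reads was not run, since the deposited values are RPKM. Depth limits the isolation label most, with 2321903 to 7742378 reads per library.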
